A study of Mus musculus with 76 samples.

Results

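The transcripts described here are 9 genes that mouse kidney expresses strongly and that were read in libraries made from heart: Kap, Acsm2, Dnase1, Cyp4b1, Miox, Kcnj15, Ttc36, Calb1 and Cyp2e1, of 54232 genes in the count table. They were listed because of their levels in the Heart libraries, and each is given as its level in a library as a percent of its mean in the Kidney Sham libraries. The levels in Heart relative to Kidney Sham, and the differences between arms of the Heart, are therefore descriptions with no test. Levels are CPM, a gene's count over the plain total of its library, scaled alike in every library.

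The samples were heart, kidney and visceral adipose tissue (VFAT) from male Fox Chase SCID mice (CB17/Icr-Prkdcscid/IcrlcoCrl), 12 weeks old. All groups, controls included, carry the scid mutation of Prkdc and lack mature T and B cells. The mice had either sham surgery (Sham) or removal of part of the kidney, partial nephrectomy, alone (PNx) or with transplanted cells. The labels call these cells Control Cells (control), Lenti-adipo-NaKtide (NaKtide) or Lenti-adipo-scrambled (scrambled), which makes 5 arms. NaKtide is a peptide that blocks signalling from the Na/K-ATPase to the kinase Src. Each tissue had 5 samples per arm, except VFAT scrambled with 4, which made 74 samples. The Heart libraries held 2803991 to 12986214 counts, the Kidney libraries 1241590 to 16912788 and the VFAT libraries 5666563 to 22287510. Heart ventricle markers (10 genes, summed) stood at 34047 to 54729 CPM in the Heart libraries, so the tissue label held there. The labels do not say that the samples of a group came from separate mice, and the p-values therefore speak only of the spread among the samples at hand. In whole tissue, fewer cells of a type and less RNA per cell cannot be told apart.

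Most of these genes belong to the proximal tubule, the segment of the nephron that takes back most of the filtered water, salts, sugars and amino acids, and that burns fatty acids to do so. Kap, the kidney androgen-regulated protein, is a small protein of proximal tubule cells whose amount follows male sex hormones. Acsm2 activates medium-chain fatty acids in mitochondria, Miox opens myo-inositol in the first step of its breakdown, and Kcnj15 forms an inward-rectifier potassium channel. Dnase1 is a secreted nuclease that digests DNA outside cells, and Cyp4b1 and Cyp2e1 are cytochrome P450 enzymes of fatty acid and drug metabolism. Calb1 (calbindin) binds calcium in the distal nephron. Ttc36 is a repeat protein found in kidney and liver, and Cyp2e1 is also made by liver and fat.

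In the Kidney Sham libraries the mean level was 4856 ± 516.8 CPM for Acsm2, 4792 ± 563 CPM for Kap and 3481 ± 246.1 CPM for Cyp4b1 (SD, n = 5). The level was 2272 ± 208.7 CPM for Cyp2e1, 1660 ± 97.5 CPM for Dnase1, 1318 ± 89.21 CPM for Miox and 1229 ± 110.8 CPM for Kcnj15. Ttc36 stood at 558.7 ± 23.09 CPM and Calb1 at 168.4 ± 31.56 CPM. Per kilobase of exon, the order of these levels changed: Kap led with 6777 CPM per kb, Cyp4b1 had 1543 and Acsm2 654.1, and Calb1 was lowest with 34.76. Kidney Sham 3, which enters this mean, held 492 CPM of summed ventricle markers, against 8.608 to 18.29 CPM in the other Kidney Sham samples. Leaving out any Kidney Sham sample moved the mean of the Heart Sham medians over the members only between 2.756 and 2.877%.

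The promoters are shown as background on the genes. Whether sites in them bear on the levels in the Heart libraries was not tested. RefSeq (GRCm38.p6) gave a promoter for 7 of the 9 genes, all but Ttc36 and Calb1. The 250 bases before the transcription start were searched on both strands for the TATA box TATAAA, for GTTAAT, the core of the site bound by the kidney and liver factor HNF1, for the palindromic HNF1 site, which contains that core, and for CAAAGTCCA, a site of the factor HNF4A. Kap, Acsm2 and Miox are printed 5′ to 3′ on the gene's strand, with matches in capitals.
Kap, chr6:133853668-133853917, minus strand: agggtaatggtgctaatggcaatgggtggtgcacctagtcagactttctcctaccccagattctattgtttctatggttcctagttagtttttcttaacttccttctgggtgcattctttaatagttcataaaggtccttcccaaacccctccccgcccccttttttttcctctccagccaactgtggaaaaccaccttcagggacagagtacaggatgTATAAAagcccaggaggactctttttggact
Acsm2, chr7:119554090-119554339, plus strand: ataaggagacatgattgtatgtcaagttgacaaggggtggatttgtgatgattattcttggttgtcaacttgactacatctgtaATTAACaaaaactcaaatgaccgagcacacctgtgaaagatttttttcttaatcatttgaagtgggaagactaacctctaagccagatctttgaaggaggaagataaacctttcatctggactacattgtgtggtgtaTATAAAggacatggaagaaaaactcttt
Miox, chr15:89334223-89334472, plus strand: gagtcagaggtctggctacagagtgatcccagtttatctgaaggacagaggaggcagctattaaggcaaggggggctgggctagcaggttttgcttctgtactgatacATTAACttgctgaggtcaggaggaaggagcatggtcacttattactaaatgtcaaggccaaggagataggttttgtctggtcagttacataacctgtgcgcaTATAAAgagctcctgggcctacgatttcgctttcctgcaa
In these windows TATAAA near the 3′ end is the TATA box, and the ATTAAC of Acsm2 and Miox is GTTAAT on the opposite strand; the matches did not overlap. The 7 genes have 9 windows, since Acsm2 and Dnase1 have 2 starts each. TATAAA was found in 6 of the 9 windows (of Acsm2, Cyp2e1, Dnase1, Kap and Miox, in Dnase1 on the opposite strand), and 12.4% of 32851 RefSeq promoter windows of this length hold it. GTTAAT was found in 3 of the 9 (of Acsm2, Dnase1 and Miox), against 6.43% of all windows. The palindromic HNF1 site and CAAAGTCCA were found in 0 of the 9, against 0.0609% and 0.384% of all windows.

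In the hearts, all 9 genes had their highest level in the library Heart Sham 3, and 8 of 9 had the next highest in Heart Sham 2. The median over the 9 genes reached 10.25% of the Kidney Sham mean in Heart Sham 3. It was 3.236% for Heart Sham 2. In the other 23 Heart libraries this median lay between 0.03675% (PNx 1) and 0.5066% (scrambled 3). Of 207 single values in those 23 libraries, 7 were above 1%: 4 of Kap and 3 of Cyp2e1.

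**Figure D1:**
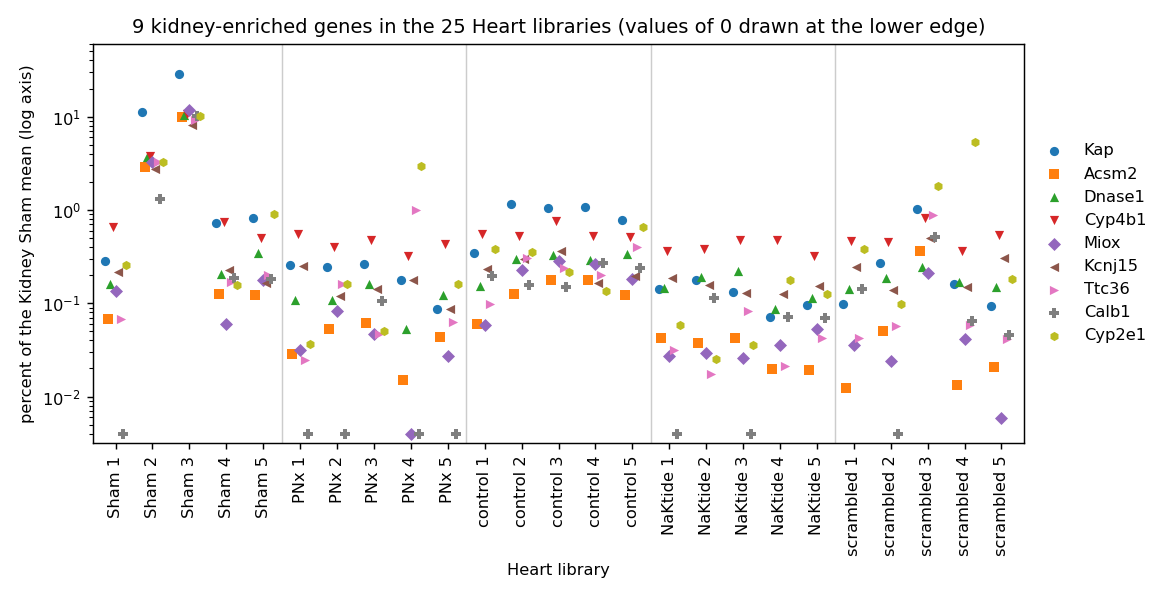
Level of each of the 9 genes (symbols) in each of the 25 Heart libraries, as a percent of the gene's Kidney Sham mean, on a log axis and ordered by arm. Sham 2 and Sham 3 stand apart, with Kap above the other genes in both, and Cyp2e1 stands out in PNx 4 and scrambled 4.

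Kap (ENSMUSG00000032758, GRCm38 chromosome 6, 133849851 to 133853762) measured 0.2816, 11.33, 28.46, 0.7282 and 0.8105% in Heart Sham 1 to 5. In Heart PNx 1 to 5 it measured 0.2556, 0.243, 0.261, 0.1795 and 0.08651%. Every Heart Sham value was thus above every Heart PNx value, and the Sham spread came from numbers 2 and 3. Heart control 1 to 5 measured 0.3448, 1.166, 1.055, 1.082 and 0.7766%, so 3 of these 5 were above Heart Sham 1, 4 and 5. The NaKtide hearts were low throughout, at 0.07182 to 0.1779%. The scrambled hearts lay at 0.09321 to 0.2711%, except scrambled 3 at 1.035%.

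Acsm2 (ENSMUSG00000030945, chromosome 7, 119554340 to 119600690) measured 0.06753, 2.915, 9.826, 0.1257 and 0.1229% in Heart Sham 1 to 5. The PNx hearts had 0.02866, 0.05245, 0.06166, 0.01501 and 0.0439%, and again did not overlap with Sham. The control hearts had 0.05936 to 0.1787%, the NaKtide hearts 0.01939 to 0.04244%, and the scrambled hearts 0.01226 to 0.05001%, except 0.3664% in scrambled 3.

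Miox (chromosome 15, 89334398 to 89337015) had the largest step between Sham 3 and the rest, 251.1 times the median of the other 23 libraries. It measured 0.134, 3.224, 11.74, 0.05935 and 0.1765% in Heart Sham 1 to 5. The PNx hearts had 0.03168, 0.08282, 0.04677, 0 and 0.02696%, where 0 reads of a total of 6859722 allow up to 0.0408%, the upper 95% limit. These groups overlapped, since PNx 2 was above Sham 4. The control hearts had 0.05888 to 0.2861%, the NaKtide hearts 0.02606 to 0.05358%, and the scrambled hearts 0.005842 to 0.2127%.

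The potassium channel gene Kcnj15 (chromosome 16, 95257558 to 95300260) measured 0.2155, 2.751, 8.094, 0.2291 and 0.1645% in Heart Sham 1 to 5. The PNx hearts had 0.2491, 0.1184, 0.1433, 0.1779 and 0.08671%. Outside Sham 2 and 3 the arms overlapped, and the highest value was 0.5057% in scrambled 3. The nuclease gene Dnase1 (chromosome 16, 4036942 to 4040024) measured 0.1595, 3.673, 10.42, 0.2073 and 0.3472% in Sham, and 0.109, 0.1096, 0.1591, 0.05269 and 0.1213% in PNx. Sham and PNx did not overlap, though Sham 1 and PNx 3 were close together. Dnase1 overlaps Trap1 and Gm15879, Kcnj15 overlaps Gm31641 and Gm49643, and Ttc36 overlaps Gm48702. The sources used here do not give whether strand was used in counting, and reads of such neighbours cannot be told apart with certainty.

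Cyp4b1 (chromosome 4, 115624725 to 115647723) was the member with the highest level in the ordinary hearts. It measured 0.6558, 3.8, 10.71, 0.7371 and 0.4968% in Heart Sham 1 to 5, and 0.5518, 0.3972, 0.4756, 0.3224 and 0.4321% in PNx 1 to 5. The groups overlapped, since Sham 5 was below PNx 1. Over all 25 hearts Cyp4b1 had the highest percent of the 9 genes in 15 libraries, Kap in 6 and Cyp2e1 in 4. Its range outside Sham 2 and 3 was narrow, 0.3178 to 0.8263%, and Sham 3 stood 22.51 times above the median of those 23 libraries.

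Calb1 (chromosome 4, 15881264 to 15908064), the distal nephron gene, rested on few reads. It had 48 reads in Heart Sham 3 (10.16%, 95% interval 7.494 to 13.48, exact Poisson, which covers counting error only) and 12 reads in Heart Sham 2 (1.316%, 0.6802 to 2.3). The other 23 hearts had 0 to 7 reads, and 8 of them had 0. In Heart Sham 2 the interval of Calb1 lay below those of the other 8 members, while in Heart Sham 3 it covered the median of the members. Calb1 did not pass the filter on low counts in Heart or VFAT, so 8 of the 9 genes entered the fits of those tissues.

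Kap stood above the other members in both outlying libraries. It was 3.508 times the median of the other 8 genes in Heart Sham 2 and 2.789 times in Heart Sham 3. The other 8 lay between 8.094% (Kcnj15) and 11.74% (Miox) in Heart Sham 3, a ratio of 1.45 from lowest to highest, and between 1.316% (Calb1) and 3.8% (Cyp4b1) in Heart Sham 2. In the other 23 hearts the ratio of Kap to the median of the other 8 genes ran from 0.6979 (scrambled 1) to 7.471 (PNx 1). It was 4.116 and 4.274 in Heart Sham 4 and 5, 1.964 to 4.636 in the control hearts and 0.9194 to 2.835 in the NaKtide hearts. Kap has 707 bases of exon and is the shortest of the 9. The length index, the mean log2 level of genes with exons under 1.5 kb minus that of genes over 4 kb, stood at 1.35 and 1.24 in Heart Sham 2 and 3, while the other hearts had −0.0981 to 1.01. The part of transcript length in the excess of Kap was not tested.

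A wider set of kidney genes was present in the same libraries. It held 200 genes, members left out, with a Kidney Sham mean of at least 50 CPM and a VFAT median of at most 1% of that mean. These are called kidney-restricted below by this rule alone, which did not screen heart or other tissues such as liver. Of the 9 members, 6 also meet this rule, all but Cyp4b1, Kcnj15 and Cyp2e1. In Heart Sham 3 all 200 were above 1%, with a median of 7.845% (quartiles 7.038 and 9.427). In Heart Sham 2, 199 of 200 were above 1%, with a median of 2.481% (2.164 and 2.899). The medians in the other 23 hearts were 0.02946 to 0.4773%, the highest in scrambled 3. In Heart PNx 4 and scrambled 3, the hearts with the most liver markers, 24.5 and 27.5% of the 200 were above 1%. In the remaining hearts outside Sham 2 and 3 this share was 7% (NaKtide 4) to 11% (PNx 1 and control 1). Kap exceeded 197 of the 200 genes in Heart Sham 3 and 195 in Heart Sham 2, whereas Kcnj15 lay near the middle in Heart Sham 3, above 107. In Heart Sham 3 the 9 genes with under 1 kb of exon, as Kap has, had a median of 11.09% (quartiles 8.252 and 11.62). There the median was 7.865% for 40 genes of 1 to 2 kb, 7.765% for 94 of 2 to 4 kb and 7.817% for 57 longer ones. In Heart Sham 2 the medians from the shortest to the longest genes were 2.538, 2.652, 2.465 and 2.378%.

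**Figure D2:**
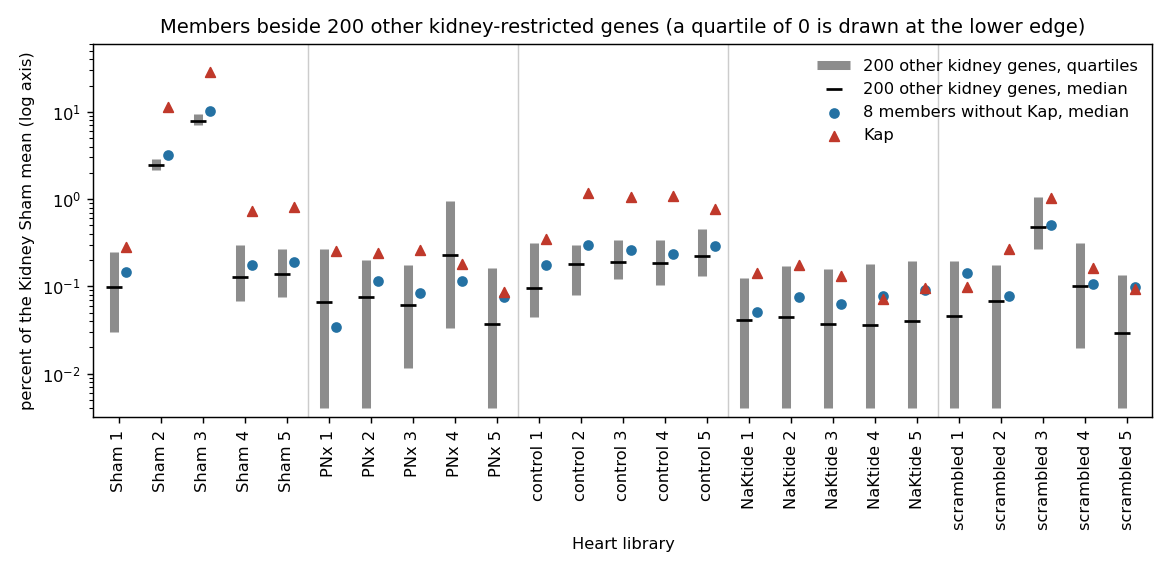
Quartile range (grey bars) and median (black dashes) of 200 other kidney-restricted genes in each Heart library, with Kap (red) and the median of the other 8 members (blue), as a percent of the Kidney Sham mean on a log axis. In Sham 2 and Sham 3 the bars are short and high, and Kap lies well above them.

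Markers of the nephron tubule were high in the same libraries. In Heart Sham 3 and Sham 2, 24 of 24 proximal tubule markers were above 1% of the Kidney Sham mean, as were all 6 loop of Henle markers, and their summed levels were 2302 and 720.2 CPM for the proximal tubule, against 22.72 to 153.5 CPM in the other hearts. The loop of Henle markers summed to 342 and 89.24 CPM, against 0.7568 to 15.72 CPM. Of 12 collecting duct markers, 11 were above 1% in Heart Sham 3 and 12 in Heart Sham 2, but their sums of 159.8 and 109.2 CPM were close to the range of the other hearts, 16.28 to 110.1 CPM. All 5 podocyte and renin cell markers were above 1% in both libraries, against 3 of 5 in each of the other 23 hearts, while their sums of 188.3 and 201.8 CPM lay within the range of the other hearts (154.1 to 350.2 CPM). Both libraries also had the highest summed ventricle markers, 54729 and 51308 CPM, against 34047 to 42626 CPM elsewhere, and red blood cell markers of 38022 and 17164 CPM, against 2300 to 20597 CPM. Heart Sham 3 had the lowest total of the hearts, 2803991 counts. The part of these differences in the members' levels was not tested.

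The 5 other genes whose log2 levels over the 25 hearts were most like the mean of the members were Slc6a18 (Pearson r = 0.99), Cltrn (0.985), Kcnj16 (0.983), Slc22a6 (0.983) and Keg1 (0.982), of 11856 candidates. All have a Kidney Sham level above that of Calb1, from 546.5 CPM (Slc6a18, an amino acid transporter) to 1426 CPM (Slc22a6, an organic anion transporter). They stood at 7.048 to 10.53% in Heart Sham 3 and 2.367 to 3.212% in Heart Sham 2. Without both libraries, r was 0.876 to 0.932 over 23 hearts. Among the members, Kap and Acsm2 kept r = 0.901 over these 23 hearts, and Kap and Miox 0.858, whereas Cyp2e1 and Acsm2 had 0.0813. These values describe libraries of the same tissue that differ in sequencing depth.

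Cyp2e1 and Ttc36 departed from the other members in a few libraries. Cyp2e1 (chromosome 7, 140763739 to 140774987) measured 0.2553, 3.236, 10.25, 0.1584 and 0.8991% in Heart Sham 1 to 5, and 0.03675, 0.1602, 0.05039, 2.977 and 0.1616% in PNx 1 to 5. In the scrambled hearts 1 to 5 it measured 0.3773, 0.0976, 1.802, 5.298 and 0.183%, so that scrambled 4 was above Heart Sham 2. Ttc36 (chromosome 9, 44799397 to 44803072) measured 0.06773, 3.241, 9.129, 0.168 and 0.1991% in Sham, and 0.02491, 0.1628, 0.04729, 0.9916 and 0.0636% in PNx. It was also high in scrambled 3, at 0.8727%, while the other scrambled hearts had 0.04135 to 0.05845%. In PNx 4 the other 7 members were at most 0.3224%, with Acsm2 at 0.01501% and Miox at 0.

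Liver markers, and some fat markers, were high in the same libraries. The 8 liver markers summed to 1160 CPM in Heart PNx 4 and 1052 CPM in Heart scrambled 3, against 0.5284 to 129.6 CPM in the other 23 hearts, and albumin (Alb) reached 598.9 and 545 CPM, with at most 70.72 CPM elsewhere. In Heart scrambled 4, with the highest Cyp2e1 outside Sham, the fat markers Adipoq, Plin1 and the brown fat gene Ucp1 stood at 56.49, 59.97 and 59.32 CPM, against at most 11.02, 10.32 and 1.009 CPM in the other 24 hearts. The whole list of 8 fat markers did not set it far apart. Its sum was 366.3 to 963.1 CPM in the scrambled hearts and 399.6 to 906.9 CPM in the PNx hearts. In Heart Sham 2 and 3 the liver markers summed to 23.28 and 26.75 CPM, and Alb stood at 5.358 and 7.133 CPM. In those libraries Ttc36 and Cyp2e1 were as high as the other members without such liver levels. Heart scrambled 3 held both kinds, with proximal tubule markers at 153.5 CPM beside its liver markers. The part of liver and fat RNA in the values of Ttc36 and Cyp2e1 was not tested.

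**Figure D3:**
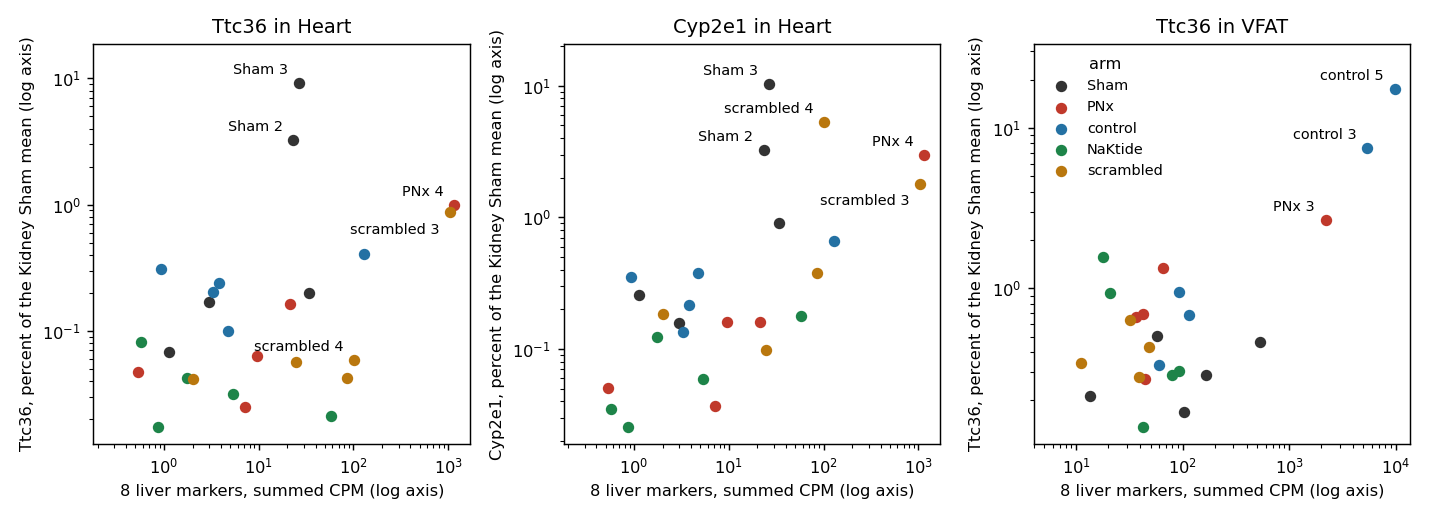
Ttc36 and Cyp2e1 in the Heart libraries and Ttc36 in the VFAT libraries (percent of the Kidney Sham mean, log axis) against the summed level of 8 liver markers (CPM, log axis); points are libraries, coloured by arm. Heart PNx 4 and scrambled 3 and VFAT control 3, control 5 and PNx 3 lie at the right, while Heart Sham 2 and 3 are high at low liver markers.

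The difference between PNx and Sham hearts was the contrast that the members were chosen from. Mean Kap was 9.829 ± 3.54 CPM in PNx and 398.8 ± 583.6 CPM in Sham (SD, n = 5 each), a log2 fold change of −5.69 (SE 1.05). The log2 fold changes of the 8 genes in the fit ran from −6.66 (Miox) to −2.30 (Cyp2e1), with a median of −4.59, against −0.00 over all 15091 genes. In this contrast edgeR called 0.126% of 15091 genes, 17 lower (0.113%) and 2 higher (0.0133%), and 6 of the 8 members were among the 17, which follows from how they were listed. The groups did not overlap for Kap, Acsm2 and Dnase1, and for 1.97% of all genes. No member was called once Sham 2, Sham 3 or any 1 PNx heart was left out. Without Sham 2 and 3 the values were −1.69 (SE 0.604) for Kap, −1.89 (SE 0.765) for Miox, −1.48 (SE 0.783) for Acsm2 and −1.23 (SE 0.347) for Dnase1. Cyp4b1 then stood at −0.65 and Kcnj15 at −0.51, and Ttc36 (0.75) and Cyp2e1 (0.59) turned to positive values. The median of the 8 was −0.94 without both libraries and −3.08 without Sham 3 alone.

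By arm, the mean over libraries of the median over members was 2.806 ± 4.366% in Heart Sham, 0.2781 ± 0.05284% in control, 0.1979 ± 0.1745% in scrambled, 0.1048 ± 0.05121% in PNx and 0.08469 ± 0.02172% in NaKtide (SD, n = 5 each). Without Sham 2 and 3 the Sham mean was 0.1815%, below that of control. Neighbours in this order overlapped. The control hearts (0.1975 to 0.3404%) did not overlap with PNx (0.03675 to 0.1779%) or NaKtide (0.05881 to 0.115%), nor did Sham (0.1595 to 10.25%) with NaKtide. These differences were not tested, since the genes were listed by these levels. The share of all genes without overlap was not computed for these pairs of arms. On the normalized values that the authors deposited, the Sham mean was 4.443%.

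The hearts of the NaKtide, scrambled and control arms are also among the 25 whose levels listed the genes, so their differences are given as descriptions. Between NaKtide and scrambled hearts edgeR called 0% of all 15091 genes (903 genes had an unadjusted p under 0.05, and DESeq2 called 5). The groups overlapped for every member, and did not for 1.96% of all genes. The fitted log2 differences of the 8 members ran from −0.12 (SE 0.847, Dnase1) to −4.06 (SE 1.36, Cyp2e1). The 5 arms share an estimate of the spread, so these SEs also carry the spread of Heart Sham 2 and 3. With only the NaKtide and scrambled hearts in the fit, Dnase1 stood at −0.13 (SE 0.272) and Cyp2e1 at −4.07 (SE 1.05). Miox and Ttc36 did not pass the filter on low counts there. In the fit of 5 arms without scrambled 3, Acsm2 went from −1.35 to 0.52, Miox from −0.71 to 0.50 and Dnase1 to 0.00. Mean Cyp2e1 was 1.916 ± 1.473 CPM with NaKtide and 35.26 ± 50.12 CPM with scrambled cells, and the groups overlapped. Between scrambled and control hearts edgeR again called 0% of all genes (1098 at an unadjusted p under 0.05, and 3 by DESeq2). These groups too overlapped for every member, and did not for 2.08% of all genes. The members ran from −1.82 (SE 1.14, Miox) to 2.04 (SE 1.18, Cyp2e1). With only the scrambled and control hearts in the fit, the SE was 0.697 for Miox and 0.911 for Cyp2e1. Both comparisons use the same scrambled hearts, with the liver and fat markers of numbers 3 and 4.

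In the kidney itself the members did not move together after partial nephrectomy in the fit of all Kidney samples. The potassium channel gene Kcnj15 and the acyl-CoA synthetase gene Acsm2 fell, the calcium-binding gene Calb1 rose, and the other 6 did not pass the test. So 3 of 9 members were called, 2 lower and 1 higher, where 7.56% of 16307 genes were called lower and 9.25% higher (16.8% in all). Their median log2 fold change was −0.39, and that of all genes 0.05.

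Kcnj15 measured 75.97, 85.6, 25.41, 38.59 and 40.18% of the Kidney Sham mean in Kidney PNx 1 to 5, against 89.87 to 113.3% in Sham, with no overlap. The level was 1.873-fold lower, at 653.4 ± 320.8 CPM in PNx and 1229 ± 110.8 CPM in Sham (edgeR log2 fold change −0.91, SE 0.226, adjusted p = 0.0196). Acsm2 measured 79.27, 76.29, 26.04, 59.81 and 63.91% in PNx and 87.02 to 112.6% in Sham, also with no overlap (edgeR log2 fold change −0.68, SE 0.208, adjusted p = 0.0365). Calb1 measured 189.9, 193.1, 98.62, 107.2 and 142.4% in PNx and 74.86 to 122.9% in Sham. It was 1.495-fold higher (edgeR log2 fold change 0.58, SE 0.188, adjusted p = 0.0418), and the groups overlapped in PNx 3 and 4.

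The P450 genes Cyp2e1 (log2 fold change −0.71, SE 0.253, edgeR adjusted p = 0.0517) and Cyp4b1 (−0.63, SE 0.276, edgeR adjusted p = 0.0910) did not pass, although PNx and Sham did not overlap. DESeq2 called Cyp2e1 (adjusted p = 0.0239), as did edgeR with the additional library of Kidney Sham 3 left out (adjusted p = 0.0471) or separate (0.0335) and with DESeq2 size factors (0.0473). In all, 4 of 9 members did not overlap, against 11.5% of all genes. Kap (0.01), Miox (0.08), Ttc36 (0.25) and Dnase1 (−0.39) had edgeR adjusted p from 0.344 to 0.981. Ttc36 spread widely, with 81.83, 74.64, 88.73, 143 and 172.1% in PNx 1 to 5. Of 24 proximal tubule markers, 6 were called lower and 0 higher (median log2 fold change −0.56), and of 12 collecting duct markers 5 of 11 tested were called higher and 0 lower (median 0.63).

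Kidney PNx 3, 4 and 5 had length indices of 1.38, 0.966 and 1.16, against −0.156 to 0.051 in Kidney Sham and 0.0012 and −0.124 in PNx 1 and 2. The long transcripts Kcnj15 and Acsm2 were lowest in those 3 libraries, and the short Ttc36 and Kap were highest in PNx 4 and 5; the part of this index in the changes was not tested. With only the PNx and Sham libraries in the fit, or without PNx 3, 4 and 5 and control 4 and 5, 0 of 9 members were called, and without these 5 libraries Kcnj15 stood at −0.40 (edgeR adjusted p = 0.486), Acsm2 at −0.45 (0.497) and Calb1 at 0.85 (0.0632). Kap, Miox and Ttc36 then stood at −0.32, −0.29 and −0.44, and Dnase1, Cyp2e1 and Cyp4b1 at −0.76, −0.66 and −0.62. In that fit every member but Calb1 had a negative value, though none was called. Kcnj15 lost its call without PNx 3, PNx 4 or Sham 4 (adjusted p 0.0524 to 0.0656), Acsm2 without PNx 3 or 4 or Sham 1, 2, 3 or 4 (0.0625 to 0.0939), and Calb1 without PNx 1, 3 or 5 or any Sham sample (0.0566 to 0.106).

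**Figure D4:**
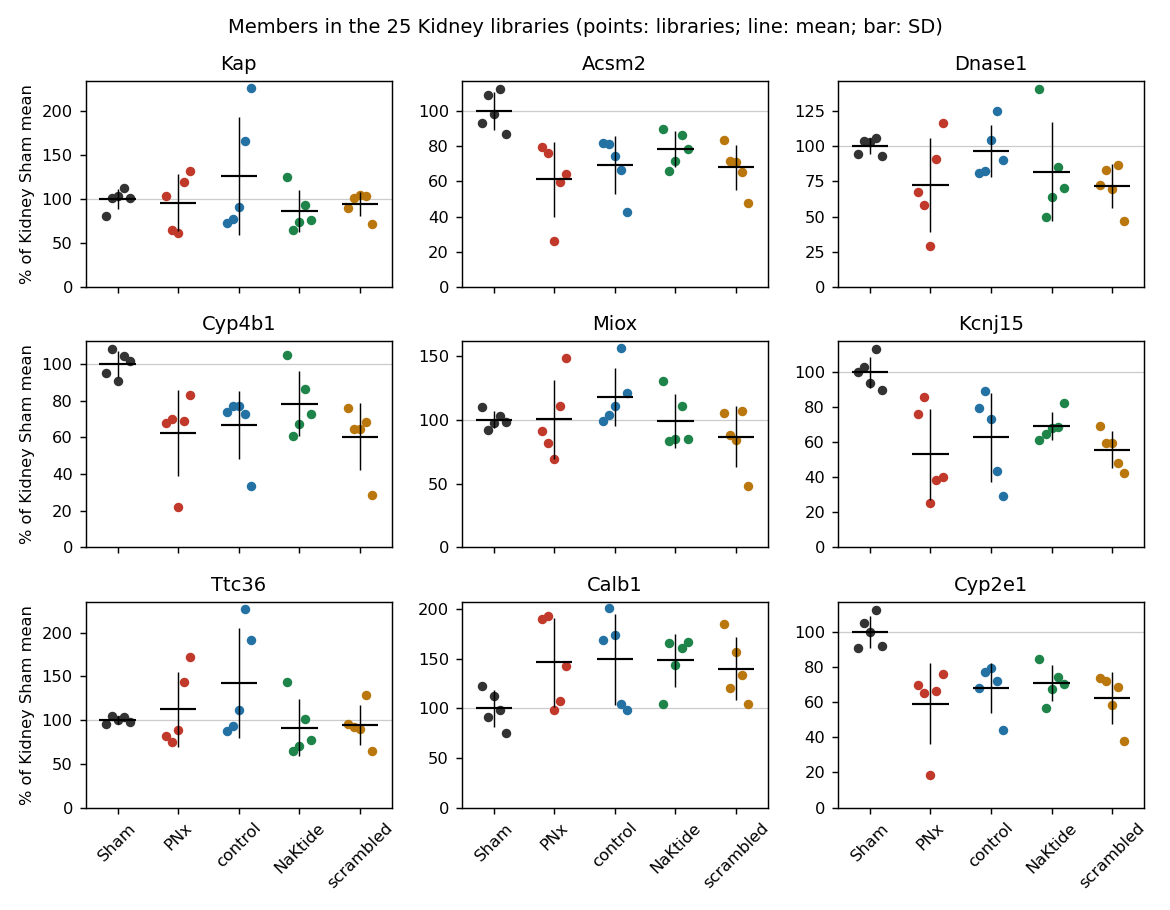
The 9 genes in the 25 Kidney libraries by arm, as a percent of the Kidney Sham mean (linear axes from 0); points are libraries, horizontal lines the mean and vertical bars the SD, and the grey line marks 100%. Kcnj15, Acsm2, Cyp4b1 and Cyp2e1 lie below Sham in every PNx library, and Calb1 lies above 140% in 3 of them.

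Between kidneys of the NaKtide and scrambled arms 0 of 9 members passed (edgeR adjusted p from 0.879 to 0.981), where 0% of 16307 genes were called (819 at an unadjusted p under 0.05, and 13 by DESeq2). The groups overlapped for all 9, and did not for 0.871% of genes. The members' log2 fold changes ran from −0.14 (SE 0.359, Kap) to 0.36 (SE 0.276, Cyp4b1).

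Visceral fat gave a further set of libraries outside the kidney. Cyp2e1 was a fat transcript there, with 16.23 to 285.8% of the Kidney Sham mean. Cyp4b1 measured 0.1906 to 2.389% and Kcnj15 0.3398 to 10.98%, and these are the 3 members that fail the rule for kidney-restricted genes. Kap was at most 0.6452% in 21 of the 24 VFAT samples. It stood at 4.341% in NaKtide 2, 1.856% in NaKtide 3 and 2.218% in Sham 3, where Acsm2 measured 1.189, 0.3181 and 0.3693% and Miox 0.9906, 0.3088 and 0.2452%. The 200 kidney-restricted genes had medians of 1.128, 0.452 and 0.4184% in these 3 samples, below Kap. These 200 were chosen partly for low VFAT levels, by a rule that Kap also meets, and are no independent background here. Their highest VFAT medians were elsewhere, 1.59% in control 5 and 1.235% in control 3, where Kap measured 0.002083 and 0.08364%. Control 5 and control 3 also had the highest liver markers in VFAT, and the rule for the 200 genes did not screen liver.

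Ttc36 in fat was highest in control 5 (17.46%), control 3 (7.52%) and PNx 3 (2.655%), against 0.1361 to 1.563% in the other 21 samples. The same 3 samples had the highest liver markers, 9801, 5418 and 2220 CPM summed, against 11.13 to 531.3 CPM. Kap and Acsm2 were low in them, at most 0.2724 and 0.02444%. Kcnj15 was highest in VFAT Sham 1 (10.98%) and Sham 4 (7.789%), against 0.3398 to 4.459% in the other 22 samples. Those 2 libraries had the highest collecting duct markers, 112.5 and 109.3 CPM summed against 1.245 to 64.13 CPM, and the lowest fat markers, 4629 and 2882 CPM against 10056 to 21914 CPM. Kap was low in both, at 0.02828 and 0.02968%, and Acsm2 was 0 in Sham 1. Which cells these marker levels came from was not tested.

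**Figure D5:**
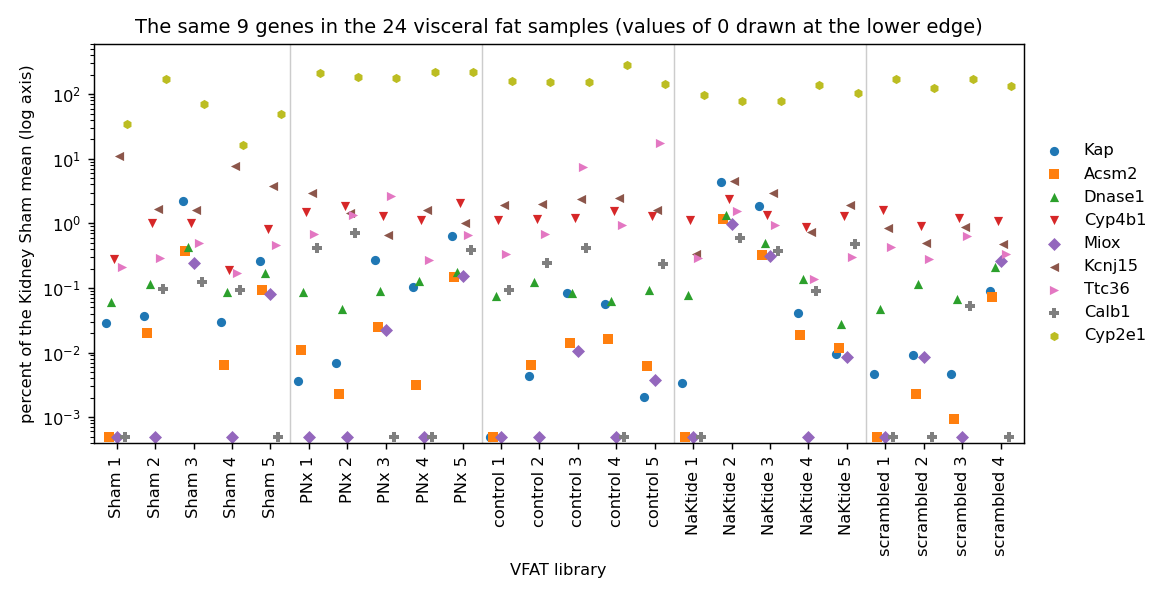
Level of the 9 genes (symbols) in the 24 VFAT samples as a percent of the Kidney Sham mean, on a log axis and ordered by arm. Cyp2e1 lies far above the rest, Ttc36 stands out in control 3 and 5, Kcnj15 in Sham 1 and 4, and Kap, Acsm2 and Miox are raised in NaKtide 2.

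After partial nephrectomy, the VFAT samples had more Cyp2e1 and Cyp4b1 and less Kcnj15 in the fit of all 5 arms. These were 3 of 8 members tested, 2 higher and 1 lower, where 4.83% of 17552 genes were called higher and 8.18% lower (13% in all). The median log2 fold change of the 8 was −0.86, and that of all genes 0.01. Tissue markers differed in the same contrast. All 6 skeletal muscle markers were called lower in PNx (median log2 fold change −7.65). The fat markers summed to 2882 to 19343 CPM in Sham and 18989 to 21914 CPM in PNx. The part of these tissue differences in the members' changes was not tested. Cyp2e1 measured 35.05, 169.1, 71.41, 16.23 and 48.78% in VFAT Sham 1 to 5 and 210.8, 182.9, 177.6, 220.3 and 222% in PNx, with no overlap (edgeR log2 fold change 1.48, SE 0.436, adjusted p = 0.0283). Cyp4b1 measured 0.2823, 1.01, 1.012, 0.1906 and 0.8075% in Sham and 1.506, 1.84, 1.317, 1.119 and 2.078% in PNx (1.17, SE 0.365, edgeR adjusted p = 0.0374), again with no overlap, which 6.51% of all genes share. Kcnj15 measured 10.98, 1.653, 1.603, 7.789 and 3.837% in Sham and 2.957, 1.461, 0.6516, 1.634 and 1.012% in PNx, and the groups overlapped (−1.75, SE 0.546, edgeR adjusted p = 0.0383).

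These 3 calls depended on which samples were in the fit. Without VFAT Sham 1 and 4 together, a choice made after seeing the data, 0 members were called, with Cyp2e1 at 0.96 (edgeR adjusted p = 0.179), Cyp4b1 at 0.64 (0.207) and Kcnj15 at −0.70 (0.606). No member was called without Sham 1, Sham 4, Sham 5 or PNx 5 alone, and 1 was called without PNx 2, 3 or 4. With only the PNx and Sham samples in the fit, 0 were called. Ttc36 (1.72, SE 0.858, edgeR adjusted p = 0.202) did not pass. Kap (−1.37, SE 1.54) and Acsm2 (−1.42, SE 1.49) turned to 1.19 and 0.31 without VFAT Sham 3, the Sham sample with the most Kap.

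Between VFAT of the NaKtide and scrambled arms 0 of 8 members passed in edgeR, where 2.36% of 17552 genes were called (0.239% higher, 2.12% lower, and 3412 genes at an unadjusted p under 0.05). The groups overlapped for every member, and did not for 6.74% of all genes. Kap measured 0.003353, 4.341, 1.856, 0.04125 and 0.009464% in NaKtide 1 to 5, and 0.004596, 0.00927, 0.004682 and 0.09069% in scrambled 1 to 4. The groups overlapped, and the fitted log2 fold change was 5.28 (SE 2.05, edgeR adjusted p = 0.145). DESeq2 called Kap alone among the members (adjusted p = 0.0288). Cyp2e1 was lowest in this comparison, at −0.80 (SE 0.451, edgeR adjusted p = 0.355). Skeletal muscle and pancreas markers were lower with NaKtide (6 of 6 and 4 of 4 tested called), and those tissues' part in the members' values was not tested.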

How the data were processed

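RNA from heart, kidney and visceral fat was read in 76 libraries. The authors deposited raw counts of reads for 54232 genes, without any scaling, and every test used these counts. Their deposited normalized signal equals the counts divided by a single factor for each library, as the values show, and served as an alternative scale. The FPKM table that the authors deposited was not used here. The submitters' processing notes name, without role, the build GRCm38, the trimmer Trimmomatic 0.38, the aligner HISAT2 2.1.0, and DESeq2 in versions 1.20.0 and 1.20.1. How reads were assigned to genes, and with which strand setting, is not given in the sources used here. The Kidney Sham and VFAT scrambled arms have an additional library of number 3, which was summed with it, giving 74 samples.

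Each tissue was fitted over its 5 arms with edgeR 4.0.16 in R 4.3.3 (quasi-likelihood F test, TMM scaling, the edgeR filter on low counts), with the Benjamini-Hochberg adjustment taken over every gene in the fit and a threshold of 0.05 for a call. Exon lengths and coordinates came from the GRCm38 annotation. In Heart, fitted differences of the members are printed without p-values, since the Heart levels listed them. Fold changes are log2 values computed here from the counts. Tables were made with Python 3.11.15 and pandas 2.3.3. Intervals of single counts are exact Poisson, 95%, and cover counting error only. The fit was tested on simulated data.

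The 9 genes and the marker lists were chosen with earlier results of these data known, so patterns in them are not independent support. Named genes were the 9 members, the 5 other genes most like them over the hearts by Pearson r on log2(CPM + 1), among genes with at least 5 CPM in a Heart library, and markers only where a result turns on them. Alternatives were the scale, the low-count filter, DESeq2 1.42.0, a block for the replicate number, a fit of only the compared arms, the handling of the additional libraries, and leaving out samples. The arms with transplanted cells were not tested against PNx, nor control against NaKtide. Their Heart levels are set side by side only as descriptions.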

Additional observations from a re-analysis of the deposited data

Results flagged for a closer look

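Of 135 sets of 4 or 5 libraries (each gene in each tissue and arm), 26 had a highest or lowest library far from the others. The rule was Dixon's gap at its 95% level. Its rate of about 1 in 20 holds for independent sets with a normal spread. These sets share libraries, and the Heart levels listed the genes, so the count of 26 is a description and cannot be set against that rate. All values are percent of the Kidney Sham mean, with the nearest other library in parentheses.

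In the Sham hearts, Miox (11.7 against 3.22) and Calb1 (10.2 against 1.32) stood apart in Sham 3. Heart PNx 4 held the most Ttc36, 0.992 against 0.163, and the most Cyp2e1, 2.98 against 0.162, with the liver markers described above. Calb1 in Heart PNx 3 was 0.105 against 0. Heart scrambled 3 stood apart for 5 genes: Kap 1.04 (0.271), Acsm2 0.366 (0.05), Miox 0.213 (0.0413), Ttc36 0.873 (0.0584) and Calb1 0.507 (0.141). Among the control hearts, Dnase1 was lowest in number 1 at 0.154 (0.292) and Cyp4b1 highest in number 3 at 0.758 (0.548).

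In the kidney the distant libraries were low ones. Kidney PNx 3 had Cyp4b1 at 22.2 (68) and Cyp2e1 at 18.8 (65), and Cyp4b1 was also low in Kidney control 5 at 33.4 (72.6) and Kidney scrambled 5 at 28.8 (64.3).

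In VFAT, Kap in Sham 3 was 2.22 (0.265) and Acsm2 there was 0.369 (0.092). VFAT PNx 5 had Acsm2 at 0.148 (0.0244) and Miox at 0.156 (0.0225). Acsm2 in NaKtide 2 was 1.19 (0.318), and Cyp2e1 in control 4 was 286 (163). VFAT scrambled 4 had Kap at 0.0907 (0.00927), Acsm2 at 0.0727 (0.00229) and Miox at 0.258 (0.00842), and VFAT scrambled 3 had Calb1 at 0.0533 (0).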

How the results depend on the processing

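Of 731 alternative values, 603 kept their direction and call or moved by less than the spread, 52 lost a call, 8 gained one, 24 changed sign and 44 moved. The arm percents moved by less than their SD over libraries in 62 of 66 alternatives, but for Heart Sham that SD (4.366) is set by Sham 2 and 3. The others were Heart control (0.2781%), which was 0.3543% on the deposited normalized values and 0.3610% with TMM over all samples, and Heart NaKtide (0.08469%), which was 0.1102% and 0.1109%. The Heart Sham mean (2.806%) was 4.443% on the deposited normalized values, 0.1815% without Sham 2 and 3, and 0.9452 to 3.468% when 1 Sham heart was left out. The median log2 fold change of the members in Heart PNx against Sham was −0.94 without Sham 2 and 3, where Ttc36 (0.75) and Cyp2e1 (0.59) changed sign, and −5.35 to −3.08 when 1 heart was left out (−3.08 without Sham 3). In Heart NaKtide against scrambled, leaving out 1 library gave −1.64 to 0.52 for Acsm2, −1.07 to 0.50 for Miox (the upper ends without scrambled 3) and −0.30 to 0.01 for Dnase1.

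In Kidney PNx against Sham the members called were 3, but 4 with DESeq2, with DESeq2 size factors and with the additional library left out or separate (Cyp2e1 added), 1 with no filter, 0 with only both arms in the fit, 0 without PNx 3, 4 and 5 and control 4 and 5, and 0 to 4 when 1 library was left out (0 without PNx 3 or Sham 4). The genes called, 2742, were 1007 with no filter, 146 with both arms alone, 97 without those 5 libraries, 4413 with DESeq2, 4283 with the additional library separate and 307 to 6534 when 1 library was left out. Kap (0.01) was −0.01 with DESeq2 size factors, −0.05 with no filter, −0.02 with DESeq2, −0.03 and −0.01 with the additional library left out or separate, −0.32 without the 5 libraries and −0.22 to 0.16 when 1 was left out. Miox was −0.29 without the 5 libraries and −0.20 to 0.18 without 1, and Ttc36 was −0.44 and −0.06 to 0.40.

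In VFAT PNx against Sham the members called were 3, but 0 with only both arms in the fit (384 genes, against 2283), 0 without Sham 1 and 4 (chosen after seeing the data; 551 genes) and 0 to 3 when 1 sample was left out (1089 to 4057 genes). Kap ran from −2.47 to 1.19 and Acsm2 from −3.36 to 0.31, the upper ends without Sham 3. In VFAT NaKtide against scrambled DESeq2 called 1 member and 1670 genes, against 0 and 414, and both arms alone gave 65 genes. In Heart PNx against Sham DESeq2 called 412 genes, no filter 76 and both arms alone 1, against 19. The cause of these changes was not tested.

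Same-numbered samples were not shown to be paired: their deviations correlated between −0.573 and 0.389. With a replicate block the members called were 3 in Kidney PNx against Sham (2803 genes, Kap −0.08) and 1 in VFAT PNx against Sham (Cyp4b1, edgeR adjusted p = 0.0417). The block called 179 genes in VFAT NaKtide against scrambled and 0 in Heart PNx against Sham, where the members' median was −3.78. Depth limits Calb1, with 0 to 7 counts in 23 hearts.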
